A study of Mus musculus with 6 samples.

Results

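The homeostatic microglia genes are a set of 10 genes that microglia of the healthy brain hold at high levels and that are commonly used to recognise these cells: P2ry12, P2ry13, Gpr34, Cx3cr1, Csf1r, Siglech, Tmem119, Sall1, Olfml3 and Aif1. They were taken by name as a fixed list, and their Ensembl identifiers were looked up in the deposited tables, where 7 of the 10 had a value in all 6 libraries, 2 in some of them and 1 in none, out of 15441 genes with any value. The tissue was the whole ipsilateral cerebral cortex of male C57/BL6J mice, young adults per the study's methods and without a transgene or mutation named in any group, which received a photothrombotic stroke (the dye Rose Bengal and cold light applied over the sensorimotor cortex, which clots the vessels below) and were taken at day 1, 3, 7, 14 or 28 post-stroke. The control group was sham-operated and taken at day 7 after the operation, so all 5 stroke groups share 1 control and only the day 7 group matches it in time. Each group was 1 poly(A)-selected, strand-specific RNA-seq library from RNA pooled over 3 mice, so no value below has a replicate error and no test was possible. A difference between libraries compares those libraries.

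Microglia are the resident macrophages of the brain parenchyma. They arise from yolk sac progenitors, are maintained by signalling through the receptor Csf1r, and survey the tissue with motile processes that reach towards nucleotides released at an injury, which they sense with the ADP receptor P2ry12. Under the influence of TGF-beta and the transcription factor Sall1 they hold an identity that differs from that of other macrophages, and in many disease models they lower part of this program while taking up a phagocytic, lipid-handling program. Several of the genes are not restricted to microglia: Csf1r and Aif1 (which encodes Iba1, the usual immunostaining marker) are also held by monocytes and by macrophages that enter an injured brain, while P2ry12, Tmem119, Siglech and Sall1 mark microglia more strictly.

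The deposited values were FPKM (fragment counts scaled to transcript length and library size) of single transcript starts, transcript ends and splicing events. The value of a gene in a library was the largest of its summed start events, its summed end events and any single event. Events at 0 were left out of the tables, so a gene without an event is called not listed, which does not show that it was absent: of 21951 annotated protein-coding genes, 11190 (51.0%) were listed in all 6 libraries. The depth of each library is unknown, and the tables held from 79330 events (day 14) to 93931 events (day 7). The day 14 library stood apart from the other 4 stroke libraries by its wider spread of log2 ratios to control over all genes, with a 5th percentile of -1.37 against -0.94 to -0.64 in the others.

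Of the members named above as stricter markers, P2ry12, Siglech and Sall1 were listed in all 6 libraries, but Tmem119 and 2 further members were mostly missing. P2ry13, an ADP receptor closely related to P2ry12 and encoded beside it on chromosome 3, was listed in no library. Tmem119, a membrane protein widely used to mark microglia, was listed at 0.961 FPKM at day 7, at 0.843 FPKM at day 28, and nowhere else. Cx3cr1, the receptor for the neuronal chemokine fractalkine, was listed at 0.0980 FPKM at day 1, at 1.84 FPKM at day 14, and nowhere else. For these 3 genes no fold change is given. The values that follow rest on the other 7, and the day 14 count and median are also given with Cx3cr1.

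The RefSeq promoter windows of 3 of the members, P2ry12, Siglech and Sall1, are shown. Start events were listed for P2ry12 and Siglech in all 6 libraries, and for Sall1 in control and at days 7 and 14. Other members also had start events, among them Aif1 in all 6 libraries. In the time courses below, P2ry12 and Sall1 were both lowest at day 1 and below control at day 14, and Siglech was lowest at day 7. Each window runs from 250 bases before to 50 bases after the RefSeq start on GRCm38.p6, and is written 5′ to 3′ on the strand of the gene. Capitals mark matches to GGAAGT, a core bound by PU.1 and other ETS factors, or to TGTGGT, a core bound by RUNX factors, on either strand, so that ACTTCC and ACCACA are matches on the other strand.
P2ry12, chr3:59262936-59263235, minus strand: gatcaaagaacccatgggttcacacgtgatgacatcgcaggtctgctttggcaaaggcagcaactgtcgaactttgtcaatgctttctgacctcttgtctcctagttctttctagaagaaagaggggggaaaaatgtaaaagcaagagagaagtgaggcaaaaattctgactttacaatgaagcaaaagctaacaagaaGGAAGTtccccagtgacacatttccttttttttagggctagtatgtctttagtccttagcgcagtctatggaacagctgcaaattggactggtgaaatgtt
Siglech, chr7:55767934-55768233, plus strand: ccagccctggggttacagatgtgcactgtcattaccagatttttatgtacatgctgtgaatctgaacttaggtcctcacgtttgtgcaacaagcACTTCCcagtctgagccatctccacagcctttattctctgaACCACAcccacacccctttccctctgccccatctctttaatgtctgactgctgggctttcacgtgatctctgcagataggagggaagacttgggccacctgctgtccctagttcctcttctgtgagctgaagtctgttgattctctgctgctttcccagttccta
Sall1, chr8:89044113-89044412, minus strand: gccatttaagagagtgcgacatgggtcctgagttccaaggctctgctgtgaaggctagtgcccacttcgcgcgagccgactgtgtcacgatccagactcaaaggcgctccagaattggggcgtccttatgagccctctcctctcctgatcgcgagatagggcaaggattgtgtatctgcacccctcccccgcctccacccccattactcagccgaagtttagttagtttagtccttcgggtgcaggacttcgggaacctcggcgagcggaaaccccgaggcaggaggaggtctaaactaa

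The RefSeq starts of Siglech (base 55768184) and Sall1 (base 89044162) are also start bases in the deposited tables, while that of P2ry12 (base 59262985) lies upstream of the outermost deposited start (base 59262871). The P2ry12 window held a GGAAGT match that began at base -51 from the start. The Siglech window held a GGAAGT match at -156 and a TGTGGT match at -115, both on the other strand, and the Sall1 window shown held neither, although another Sall1 window (chr8:89042813-89043112) held a GGAAGT match at -180. Windows of 7 of the 10 members were used and were 9 in number, since Sall1 had 3. Windows on chromosome 18, where Csf1r lies, were left out, so Csf1r does not enter the counts that follow. GGAAGT was in 3 of these 9 windows and in 23.8% of all 32851 promoter windows, TGTGGT in 3 of 9 and in 16.8%, and TGANTCA, the core bound by AP-1, in 0 of 9 and in 7.81%. These are letter matches in short windows and say nothing about binding.

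P2ry12 (chr3:59216272-59262871, minus strand, lying within the span of Med12l on the opposite strand), the ADP receptor that directs microglial processes to an injury, measured 18.0 FPKM in control and 7.01, 21.7, 17.7, 13.3 and 15.6 FPKM at days 1, 3, 7, 14 and 28. Its day 1 value was the lowest of the 6, at 38.9% of control, which is 2.57-fold lower, and the other 5 libraries lay between 13.3 and 21.7 FPKM. From day 1 to day 3 the value was 3.09-fold higher. The log2 ratios to control at days 1, 3, 7, 14 and 28 were -1.35, 0.26, -0.03, -0.44 and -0.21, so that P2ry12 passed the 2-fold line only at day 1. In bulk tissue, fewer cells of a type and less RNA per cell cannot be told apart, here and in the values that follow.

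Gpr34 (chrX:13632089-13640858, plus strand), a receptor for lysophosphatidylserine, measured 7.93 FPKM in control and 2.18, 12.9, 15.6, 11.4 and 6.94 FPKM at days 1, 3, 7, 14 and 28. It was the member with the lowest day 1 value relative to control, 27.4%, or 3.64-fold lower (log2 ratio -1.82), and days 3 to 14 were all above control by this value. Its step from day 1 to day 3, 5.91-fold, was the largest of any member between neighbouring time points. At day 7 its log2 ratio of 0.96 fell just short of the 2-fold line. The day 1 value depended on how the gene was measured: its annotated start event held only 0.133 FPKM in control against 7.93 FPKM at its end, and with the start events alone the log2 ratio was 3.28 at day 1 and -0.61 at day 14. P2ry14, a UDP-sugar receptor of the same chromosome 3 cluster as P2ry12, was listed only at day 1 (0.345 FPKM) and day 7 (0.206 FPKM).

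**Figure D1:**
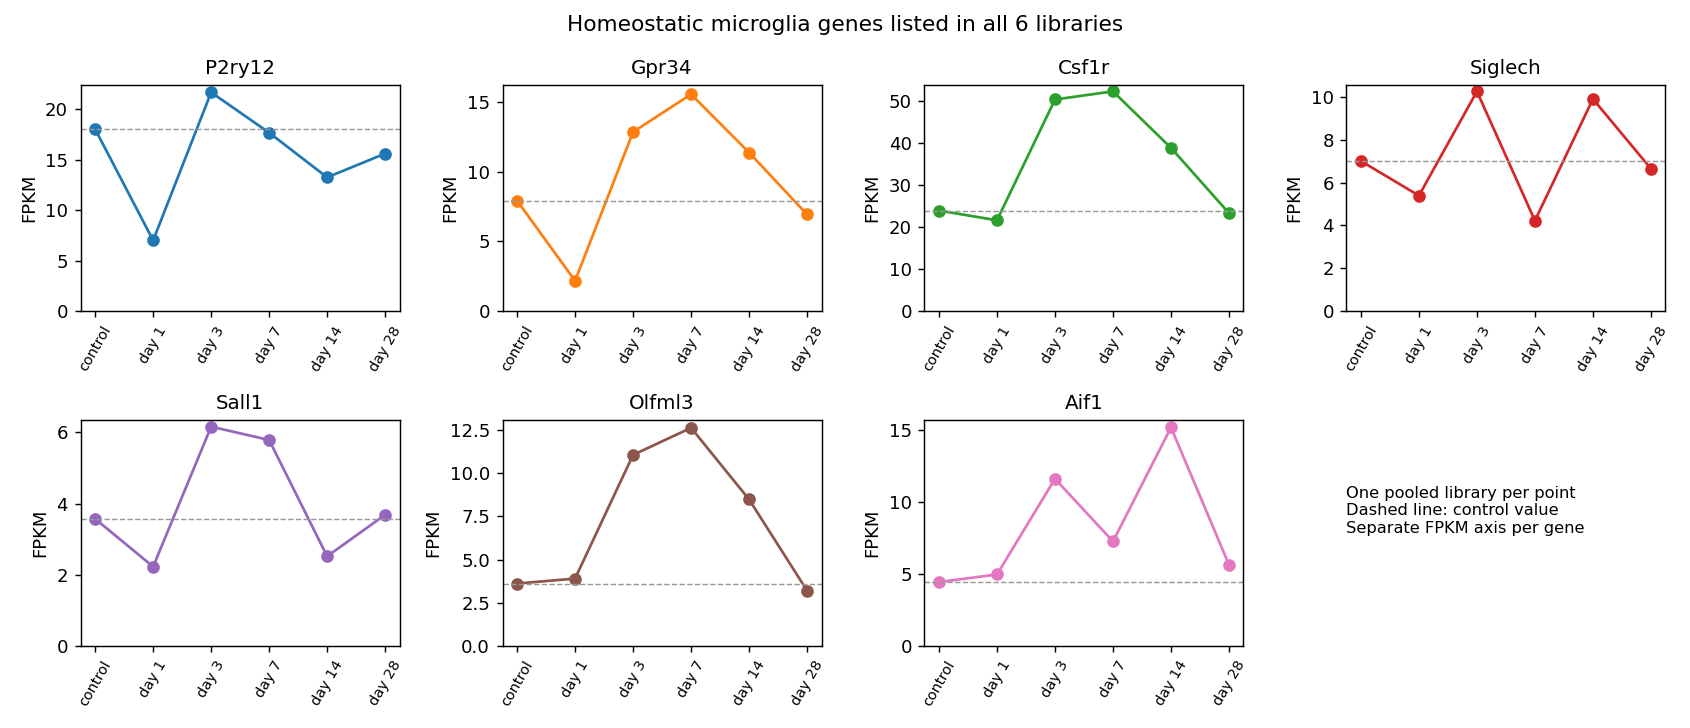
FPKM of the 7 homeostatic microglia genes listed in all 6 libraries, 1 panel per gene with its own vertical axis from 0, and the 6 libraries evenly spaced on the horizontal axis. Each point is 1 pooled library and the dashed line is the control value. P2ry12 and Gpr34 are lowest at day 1 (7.01 and 2.18 FPKM), while Csf1r, Olfml3 and Gpr34 are highest at day 7.

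Csf1r (chr18:61100598-61132149, plus strand), the receptor that microglia need for survival and proliferation, measured 23.9 FPKM in control and 21.6, 50.4, 52.3, 38.9 and 23.3 FPKM at days 1, 3, 7, 14 and 28. Days 3, 7 and 14 were above the other 3 libraries, which lay within 21.6 to 23.9 FPKM. The log2 ratios to control were -0.15, 1.07, 1.12, 0.70 and -0.04 at days 1, 3, 7, 14 and 28. Only an end event was listed for this gene.

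Of its ligands, Il34 measured 20.8 FPKM in control and stayed near it, with log2 ratios of -0.05, 0.06, -0.13, 0.34 and 0.24 over the 5 time points. Csf1 measured 3.98 FPKM in control and 9.96 FPKM at day 7 (log2 ratio 1.30), after 8.57 FPKM at day 3 (1.09), so it passed the 2-fold line on the same days as its receptor. Among 12 ligands, partners and related receptors of the members, 9 had at least 1 FPKM in control. Of these 0, 2, 2, 1 and 0 were higher at days 1, 3, 7, 14 and 28, and 0 were lower on any day. Among all genes with 1 FPKM in either library, 5.11%, 8.54%, 8.53%, 8.97% and 3.68% were higher. The medians of the 9 log2 ratios were 0.05, 0.43, 0.09, 0.23 and 0.14. The higher calls were Csf1 (days 3 and 7) and Tyrobp (days 3 to 14). P2ry6 was below 1 FPKM in control, so it could be compared only where it was high and is not counted. Cx3cl1 (fractalkine, made by neurons) lay between 126 and 154 FPKM in all 6 libraries. Sirpa and Cd47, a receptor and ligand pair that restrains phagocytosis, had log2 ratios of at most 0.23 in size. P2ry6, the UDP receptor that triggers phagocytosis, measured 0.752 FPKM in control and 5.30 FPKM at day 7 (log2 ratio 2.66), and Tyrobp, the adaptor of Trem2 and related receptors, measured 21.5 and 146 FPKM (2.76). Entpd1, the ectonucleotidase that breaks down ATP and ADP, was called on no day, with log2 ratios from -0.36 at day 14 to 0.85 at day 3.

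Siglech (chr7:55768178-55778925, plus strand), a sialic acid-binding lectin of microglia, measured 7.01 FPKM in control and 5.39, 10.3, 4.22, 9.91 and 6.65 FPKM at days 1, 3, 7, 14 and 28. It was the only member listed in all libraries that was lowest at day 7, where the value was 2.43-fold below day 3, and the day 14 value was 2.35-fold above day 7. Against control no day reached 2-fold, with log2 ratios of -0.37, 0.54, -0.72, 0.49 and -0.07.

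Sall1 (chr8:89027235-89044162, minus strand), a zinc finger transcription factor that maintains microglial identity in the adult brain, measured 3.57 FPKM in control and 2.23, 6.16, 5.79, 2.52 and 3.69 FPKM at days 1, 3, 7, 14 and 28. Days 3 and 7 were above control, days 1 and 14 below it and day 28 close to it, with log2 ratios of -0.66, 0.77, 0.68, -0.49 and 0.04, and no day reached 2-fold.

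Other regulators of microglia did not share one course. Of a list of 12, values could be compared for 8. Of these 0, 2, 2, 1 and 0 were higher and 1, 0, 0, 2 and 0 lower at days 1, 3, 7, 14 and 28. Their medians were -0.34, 0.07, 0.01, -0.30 and 0.17. Over all genes with 1 FPKM in either library, 3.68% to 8.97% were higher and 2.12% to 6.92% lower, depending on the day. Spi1, which encodes the myeloid pioneer factor PU.1, measured 1.89 FPKM in control and 3.84, 7.85, 9.45 and 6.96 FPKM from day 1 to day 14, the last 3 past 2-fold. Tgfbr2, a receptor subunit for TGF-beta, was past 2-fold at days 3 and 7 (log2 ratio 1.68 at both). Mef2c, a factor that neurons also hold at high levels, went the other way, at 59.8 FPKM in control but 23.0 and 21.3 FPKM at days 1 and 14 (log2 ratios -1.37 and -1.49). The other lower call at day 14 was Tgfbr1 (5.30 FPKM in control, 0.855 at day 14).

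Olfml3 (chr3:103722222-103738001, minus strand), a secreted glycoprotein of microglia, measured 3.61 FPKM in control and 3.90, 11.1, 12.6, 8.49 and 3.20 FPKM at days 1, 3, 7, 14 and 28. Days 3, 7 and 14 were all past 2-fold, with log2 ratios of 1.59, 1.78 and 1.21, and days 1 and 28 were close to control (0.11 and -0.17). The value rests on a single end event.

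Aif1 (chr17:35170991-35176068, minus strand), the actin-binding protein Iba1 of microglia and macrophages, measured 4.43 FPKM in control and 4.96, 11.6, 7.25, 15.2 and 5.63 FPKM at days 1, 3, 7, 14 and 28. It had a higher value at day 3 and at day 14 than at day 7 between them, with log2 ratios of 0.16, 1.37, 0.70, 1.75 and 0.34. The day 14 ratio was 1.29 after correction for a trend with transcript length, still past 2-fold.

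Across the 10 members, at least 2-fold lower values were found at day 1 and at least 2-fold higher values from day 3 to day 14. At day 1, 2 of the 7 members compared were lower (P2ry12 and Gpr34) and 0 were higher, where 4.48% of all 11790 genes compared were lower and 5.11% higher. At day 3, 3 of 7 were higher (Csf1r, Olfml3 and Aif1), where the share over all genes was 8.54%, and 0 were lower (2.53%). At day 7, 2 of 7 were higher (Csf1r and Olfml3, background 8.53%) and 0 lower (2.12%). At day 14, 2 of the 7 members listed in both libraries were higher (Olfml3 and Aif1, background 8.97%) and 0 lower (6.92%). Cx3cr1 was not listed in control and passed the filter only through its day 14 value, so it could only be called higher. With it the count was 3 of 8. At day 28 none of 7 was called in either direction, where 3.68% of all genes were higher and 2.79% lower.

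The median log2 ratio of the members over the 5 time points was -0.37, 0.77, 0.70, 0.52 (0.61 with Cx3cr1) and -0.07, against medians over all genes of 0.01, 0.03, 0.03, 0.10 and 0.03. At day 1, 5 of 7 members were below control, at day 3 all 7 were above it, and at day 28 all lay between -0.21 and 0.34.

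**Figure D2:**
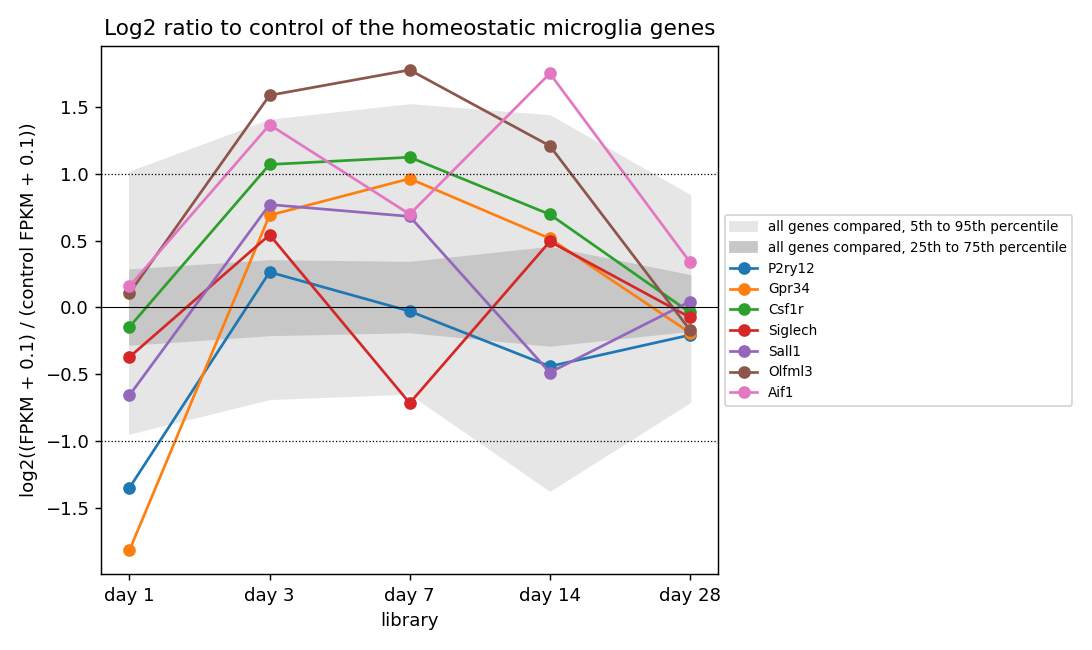
Log2 ratio to control, computed as log2((FPKM + 0.1)/(control FPKM + 0.1)), of the 7 members at the 5 time points (evenly spaced), over grey bands that hold the middle of all genes compared (25th to 75th and 5th to 95th percentile). Dotted lines mark 2-fold. At day 1 P2ry12 and Gpr34 lie below the 5th percentile of all genes, at day 7 Olfml3 lies above the 95th, and at day 28 the members lie from -0.21 to 0.34.

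The members did not follow a single course. Over the 5 log2 ratios, the closest pair was Csf1r and Olfml3, with a root mean square difference of 0.46, followed by P2ry12 and Sall1 with 0.51, and the farthest pair was P2ry12 and Olfml3 with 1.41. The largest value was at day 3 for P2ry12, Siglech and Sall1, at day 7 for Gpr34, Csf1r and Olfml3 and at day 14 for Aif1. The ratio of the highest to the lowest library was widest for Gpr34 (7.15-fold) and narrowest for Csf1r (2.42-fold).

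FPKM is scaled by transcript length, so levels of different members can be set side by side within a library. Csf1r was the highest of the 7 in all 6 libraries and P2ry12 came second in all but day 14, where Aif1 stood above it (15.2 against 13.3 FPKM). Gpr34, below only Csf1r and P2ry12 in control, was the lowest of the 7 at day 1, and Siglech, ahead of Aif1, Olfml3 and Sall1 in control, was the lowest at day 7. Summed over the 7, the FPKM came to 68.5 in control and 47.3, 124, 115, 99.6 and 65.0 at days 1, 3, 7, 14 and 28.

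Ratios within a library do not depend on how libraries were scaled. Relative to Csf1r, P2ry12 measured 0.754 in control and 0.324, 0.430, 0.338, 0.341 and 0.670 at days 1, 3, 7, 14 and 28. The ratio was thus below control at all 5 time points, and the 4 from day 1 to day 14 lay within 0.324 to 0.430 although the P2ry12 level itself was above control at day 3 (21.7 against 18.0 FPKM). Gpr34 relative to Csf1r was 0.331 in control, 0.101 at day 1 and 0.255 to 0.298 from day 3 to day 28. Siglech relative to Csf1r was 0.293 in control, lowest at day 7 (0.0808) and 0.204 to 0.285 at the other time points, and Sall1 relative to Csf1r was 0.149 in control, lowest at day 14 (0.0648) and above control only at day 28 (0.158).

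Olfml3 and Aif1 behaved otherwise. Olfml3 relative to Csf1r was above control from day 1 to day 14, with its maximum at day 7 (0.242 against 0.151), and Aif1 relative to Csf1r was above control at 4 of 5 time points, with its maximum at day 14 (0.390 against 0.185) and its only lower value at day 7 (0.139).

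Relative to the median of genes shared by all myeloid cells, every member except Aif1 was below control at all 5 time points. The reference was the median of the 7 pan-myeloid genes listed in all libraries, which was 8.60 FPKM in control and 13.9, 29.4, 39.6, 32.9 and 9.88 FPKM at days 1, 3, 7, 14 and 28. P2ry12 relative to this median was 2.10 in control and 0.504, 0.737, 0.446, 0.403 and 1.58 at days 1, 3, 7, 14 and 28. Csf1r itself was 2.78 in control and lowest at day 14 (1.18, with 1.32 at day 7). Aif1 was below control on 4 of 5 days, the exception being day 28. The median did not fall on the same gene in every library, and single genes of the list could give another order. At day 3, for example, the log2 ratio to control was -0.12 for Coro1a and 0.26 for P2ry12. Coro1a, the pan-myeloid gene that stayed near control, set the median at day 7. Without it the counts of days below control were the same, but the lowest day was day 7 for both P2ry12 (0.478, against 0.511 at day 14) and Csf1r (1.42).

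**Figure D3:**
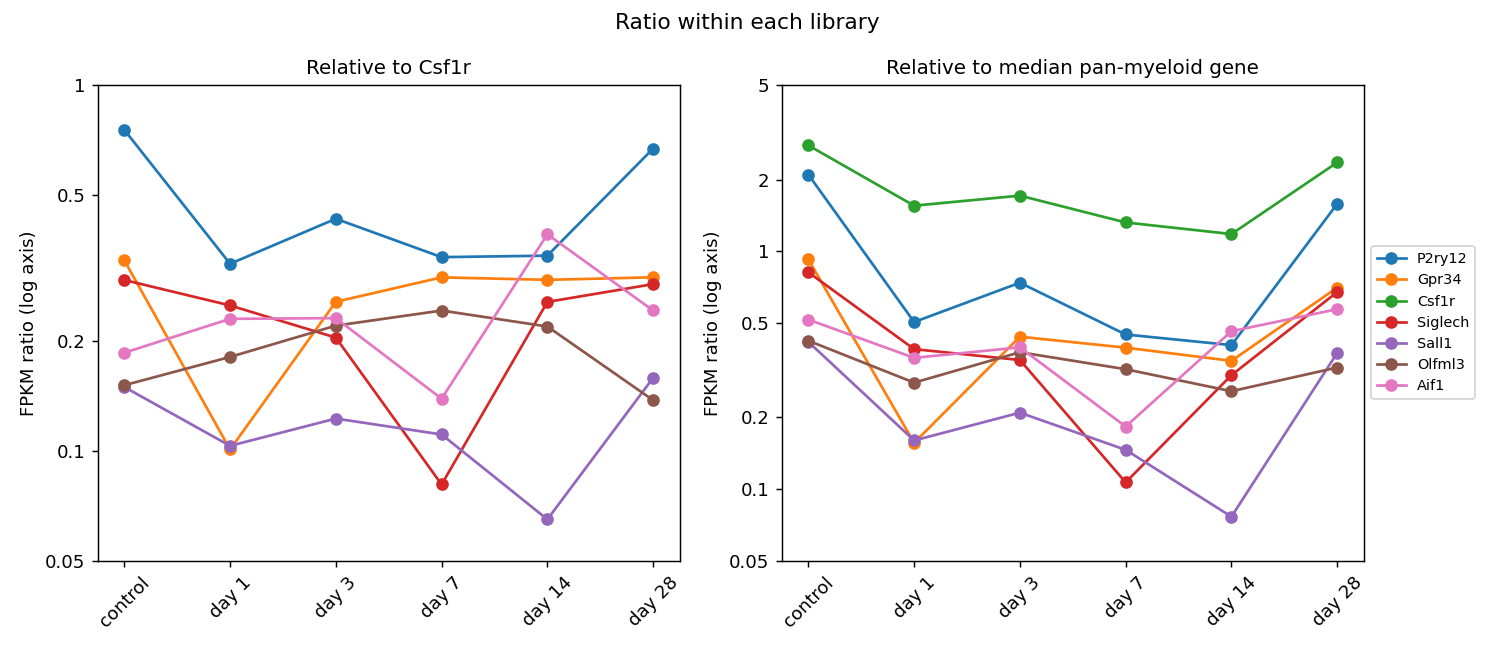
Ratio of each member's FPKM to that of Csf1r (left) and to the median FPKM of 7 pan-myeloid genes (right) within each library, on logarithmic axes, with the 6 libraries evenly spaced. On the left P2ry12 goes from 0.754 in control to between 0.324 and 0.430 at days 1 to 14 and 0.670 at day 28. On the right the members other than Aif1 lie below their control value at every time point.

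The start events gave a further measure that the gene totals do not show. For P2ry12, the table assigned transcripts to 3 start exons: the annotated first exon (chr3:59262774-59262871), an exon that begins 35290 bases downstream (chr3:59227451-59227581) and one that begins 42612 bases downstream (chr3:59220219-59220259). The first exon held 97.0% of the start FPKM in control, then 48.1%, 0.505%, 45.6%, 98.2% and 13.9% from day 1 to day 28. The exon 35290 bases downstream held 99.5% at day 3 and 54.4% at day 7, and the exon 42612 bases downstream 51.9% at day 1 and 84.8% at day 28. The summed start events equalled the end event in every library, so the gene total did not depend on which start was used. Both downstream start exons overlap exons that other events of the table place inside transcripts beginning at the first exon. Without replicates or read counts, it was not tested whether these shares differ beyond the assignment of reads to starts.

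**Figure D4:**
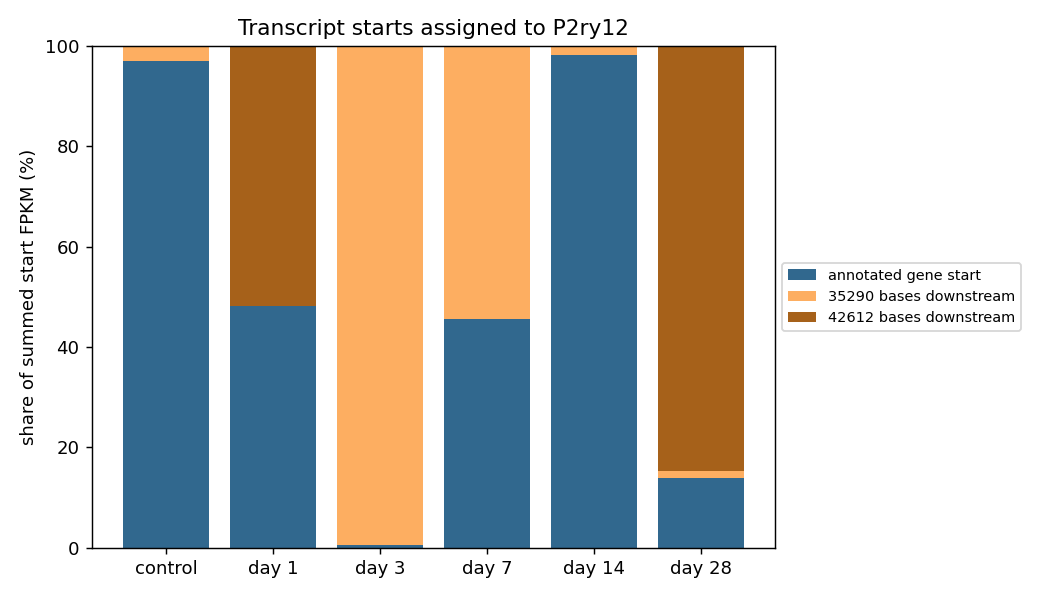
Share of the summed FPKM of P2ry12 transcript starts (%, vertical axis) assigned to each of 3 start exons in the 6 libraries, as stacked bars from 0 to 100%. The annotated start holds 97.0% in control and 98.2% at day 14, but 0.505% at day 3 and 13.9% at day 28.

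Siglech had a pair of start exons, chr7:55768178-55768370 and chr7:55768184-55768721. Their starts lie 6 bases apart and their ends also differ, so the shares compare 2 forms of the first exon and not only 2 start bases. The exon ending at base 55768370 held at most 0.309% of the start FPKM in control and at days 1, 3 and 14. It was not listed at day 28, and held 41.8% at day 7, the library with the lowest Siglech total. The Siglech exon at chr7:55768887-55769165 was included at 3.98 FPKM in control and 2.99, 3.97, 2.89, 4.63 and 1.91 FPKM at days 1, 3, 7, 14 and 28, and skipped at 3.01, 2.40, 2.80, 1.02, 5.27 and 4.47 FPKM between the same neighbouring exons. At day 3 alone a further event skipped this exon together with the next, at 3.18 FPKM. Over all events that include or skip the exon, inclusion was above skipping in control and at days 1 and 7, and below it at day 3 (4.28 against 5.98 FPKM), day 14 (4.64 against 5.27) and day 28 (2.19 against 4.47). Aif1 was assigned to a start exon at chr17:35173141-35173278 in control and day 7 (over 99.9% of its start FPKM) and to one at chr17:35172515-35172819 at days 1, 3, 14 and 28 (100%). For Sall1 a start event was listed only in control, day 7 and day 14, at the same FPKM as its end event.

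Other microglia-enriched genes were, as a list, higher at days 3 to 14 and near control at days 1 and 28. The medians were -0.03, 0.91, 1.13, 0.72 and 0.07 over the 14 of 18 with at least 1 FPKM in control. Of them 0, 6, 8, 4 and 0 were higher and 1, 0, 0, 0 and 2 lower at days 1, 3, 7, 14 and 28. Depending on the day, 3.68% to 8.97% of all genes were higher and 2.12% to 6.92% lower, on the wider filter of 1 FPKM in either library. The lower calls on the list were Selplg at day 1 (1.63 FPKM in control, not listed at day 1) and Selplg and Fcrls at day 28. Fcrls, an Fc receptor-like molecule of resident microglia, measured 15.2 FPKM in control, and 63.9, 78.5, 36.7 and 3.63 FPKM from day 3 to day 28. Lgmn, a lysosomal protease, measured 50.1 FPKM in control and 142 at day 7, and Cst3, a secreted protease inhibitor that astrocytes also make, was called on no day.

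Of the pan-myeloid genes, 6 had at least 1 FPKM in control. Of these 0, 5, 5, 5 and 0 were higher than control at days 1, 3, 7, 14 and 28, with medians of 0.39, 1.74, 2.37, 2.07 and 0.07. Of 12 genes of disease-associated microglia, 7 had at least 1 FPKM in control, of which 1, 4, 5, 6 and 1 were higher and 1 (Apoe), 0, 0, 0 and 0 lower, with medians of 0.09, 1.26, 2.50, 2.22 and 0.55. Tyrobp stands on this list as well as among the partners. Beside both lists, 3.68% to 8.97% of all genes with 1 FPKM in either library were higher and 2.12% to 6.92% lower, depending on the day. Spp1 (osteopontin) measured 7.42 FPKM in control and 783 at day 7, and Apoe, the main lipid carrier of the brain, 716 FPKM in control, with 287 FPKM at day 1 and 3534 FPKM at day 14. At days 3, 7 and 14 these medians and those of the pan-myeloid list were above the medians of the homeostatic members (0.77, 0.70 and 0.52, without Cx3cr1), and at day 1 the pan-myeloid and disease-associated medians were above 0 and the homeostatic median below it.

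**Figure D5:**
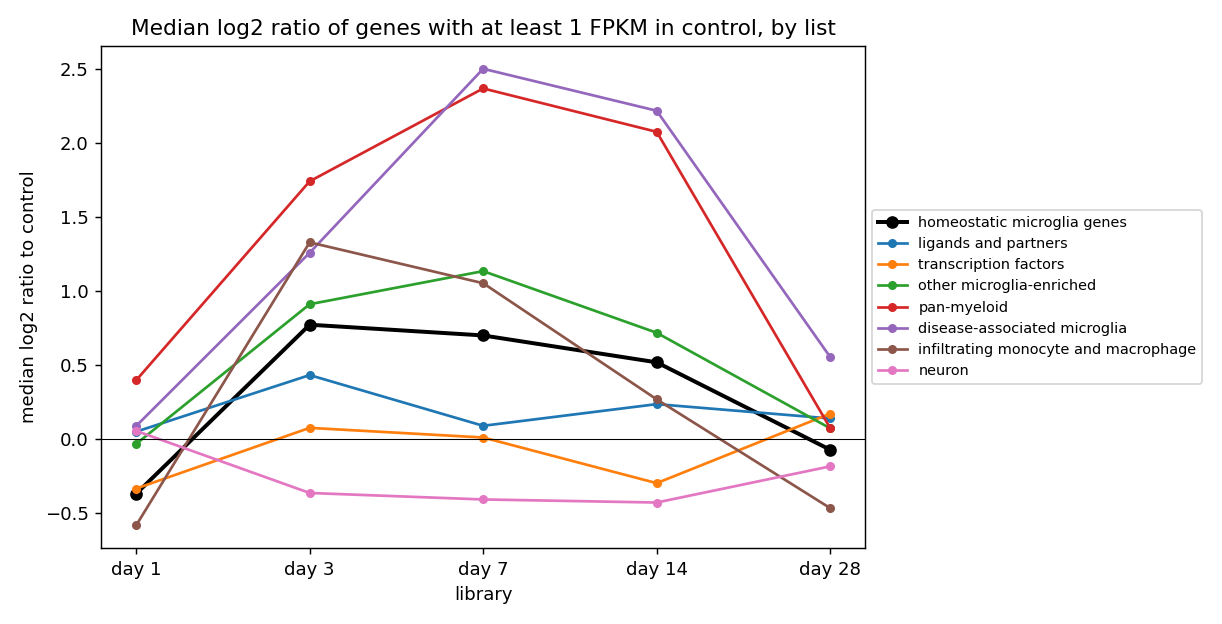
Median log2 ratio to control of the 7 homeostatic microglia genes listed in all libraries (black) and of 7 comparison lists at the 5 time points (evenly spaced), over the genes of each list with at least 1 FPKM in control. The homeostatic median goes from -0.37 at day 1 to 0.77 at day 3 and -0.07 at day 28. The disease-associated median reaches 2.50 at day 7, and the neuronal median stays between -0.43 and 0.05.

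Other cells can also hold Csf1r, Aif1 or pan-myeloid genes. Many of their markers were not listed or low in control and entered the comparison only where they were high, so counts and medians are given for the genes with at least 1 FPKM in control. Of 12 markers of infiltrating monocytes and macrophages, these were 4, of which 0, 2, 2, 1 and 1 were higher and 1, 0, 0, 1 and 0 lower at days 1, 3, 7, 14 and 28, with medians of -0.59, 1.33, 1.05, 0.27 and -0.47. The summed FPKM of the whole list went from 21.5 in control to between 29.8 (day 1) and 411 (day 7). The lower calls were Itga4 at day 1 and Vcan at day 14. Shares over all genes with 1 FPKM in either library were 3.68% to 8.97% higher and 2.12% to 6.92% lower, depending on the day. Lyz2 (lysozyme) measured 6.73 FPKM in control and 357 at day 7. Ccr2, the defining receptor of entering monocytes, was not above 0.199 FPKM in any library. Ly6c2 was not listed in control or at day 1, and measured 1.89, 0.911, 3.56 and 1.67 FPKM at days 3, 7, 14 and 28. Of 6 border macrophage markers, these were Mrc1 and Pf4, both higher at day 3 and Pf4 at day 7, and the summed FPKM of the list was 4.43 in control and 5.09 to 15.4 after stroke. Mrc1, the defining mannose receptor, measured 1.30 FPKM in control and 3.74 at day 3. Of 7 neutrophil markers only Csf3r reached 1 FPKM in control, so no count is given for the list. Csf3r, which other myeloid cells also hold, was higher at days 3, 7 and 14 (1.30 FPKM in control, 5.74 at day 7). The sum of the markers was 1.37 FPKM in control and 2.25 to 19.9 after stroke, with the maximum at day 1 (S100a9 10.1 FPKM). Ly6g was listed in no library. Of 5 T cell markers only Cd4, which macrophages can also hold, was compared, none was called, and Cd3g was listed in no library. The part of these cells in the values of Csf1r, Aif1 and the pan-myeloid reference was not tested.

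Of the cells native to the cortex, none of the 6 neuronal markers was called on any day (medians 0.05, -0.37, -0.41, -0.43 and -0.19). At most 8.97% of all genes were higher and 6.92% lower on any day, so a list of 6 could lack calls at these shares. The summed FPKM of the neuronal markers was 1484 in control and 997 to 1383 after stroke, lowest at day 14. Of 5 astrocyte markers, 1, Gfap, was higher from day 1 to day 14 (85.8 FPKM in control, 698 at day 3), with list medians from -0.17 to 0.28. Of 4 oligodendrocyte markers, 1, Mag, was higher, at day 7 only (medians -0.19 to 0.44). Of the 3 endothelial markers only Pecam1 had at least 1 FPKM in control. It was just past 2-fold at day 3 (log2 ratio 1.05) and had a log2 ratio of 0.13 at day 1. Kdr (0.958 FPKM in control, 2.09 at day 3) could be compared only where it was higher. Cldn5 was listed only at day 1 (1.03 FPKM), so neither is counted. None of the 5 cycling-cell genes reached 1 FPKM in control, so each could be compared only where it was high and no count is given. Top2a measured 0.786 FPKM in control and 12.8 at day 3, the day on which P2ry12, Siglech and Sall1 were highest. The summed cycling-cell FPKM was 1.45 in control and 25.8 at day 3. The part of dividing cells in the day 3 values was not tested.

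Among 10162 other genes with at least 1 FPKM in all 6 libraries, the 5 whose log2 ratios were nearest to the median course of the members were Lrrtm4 (root mean square difference 0.09), Selenop (0.14), Nrp1 (0.14), Ltc4s (0.15) and Mylip (0.15). Ltc4s, a leukotriene synthase on the list of other microglia-enriched genes, measured 4.45 FPKM in control and 4.10, 7.49, 7.25, 7.45 and 4.09 FPKM at days 1, 3, 7, 14 and 28. Lrrtm4, a synaptic adhesion protein of neurons, measured 6.75 FPKM in control, with its lowest value at day 1 (4.73 FPKM) and 10.4 and 6.30 FPKM at days 7 and 28. Selenop, a secreted selenium carrier, measured 165 FPKM in control and 122, 285, 238, 226 and 185 FPKM after stroke. The likeness is a description over 5 ratios that share 1 control.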

How the data were processed

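RNA from the ipsilateral cortex was pooled from 3 mice per group, giving 1 library for control and 1 for each of 5 time points. The authors deposited FPKM per transcript start, end and splicing event on mm10. Per the labels' processing notes, Trimmomatic 0.30, HISAT2 2.0.1 and HTSeq 0.6.1 were used; the tool that made the event tables is not given in the sources used here. Reads were paired-end and strand-specific, and since library depths are not given in the sources used here, neither intervals nor detection limits could be set. Gene values were the largest of the summed starts, summed ends and any single event; this construction came from earlier work on these data that compared several with the study's own tables, so it was not blind to the study's results. Every event of the members overlapped its gene's annotated span. The 879 loci without an identifier were left out.

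The log2 ratio of a time point to control was taken with a pseudocount of 0.1 FPKM, for genes that reached 1 FPKM in either library, and called at 1 in size (2-fold). In counts, a gene missing from a table stood as 0. No p-value was computed. The members, gene lists and alternatives were chosen with earlier results of these data known. All members were named, up to 4 genes per comparison list (those of highest mean FPKM), the 5 genes nearest to the median course, and genes a result turned on; Csf1, P2ry6, P2ry14, Entpd1, Spi1, Tgfbr1, Tgfbr2, Ccr2, Ly6c2, Ly6g, Mag, Il34, Selplg, Itga4 and Vcan were named after their values were seen or as defining markers. The values of 1 further gene of the comparison lists are not reported here. Annotation was GENCODE M21 and promoters were from RefSeq (GRCm38.p6). The methods were tested on simulated data. Every simulated gene was listed in all libraries with equal start and end sums. Genes with unequal starts and ends, with only an end event or not listed were thus not covered. Python 3.11.15, numpy 2.4.6, pandas 2.3.3 and matplotlib 3.10.9 were used.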

Additional observations from a re-analysis of the deposited data

Results flagged for a closer look

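A locus that the authors' tables give no gene identifier, and which therefore enters no comparison above, overlapped Sall1 on the opposite strand (chr8:89041592-89043351, plus strand). It was listed at 0.515 FPKM at day 1, 0.795 FPKM at day 3, 0.949 FPKM at day 7 and 1.05 FPKM at day 28, and was not listed in control or at day 14. It was picked out because a value appeared after stroke in data outside the main measurement where control had none. The start event of Sall1 itself was listed in control and at days 7 and 14, so that the start of Sall1 and this locus were both listed only at day 7. The libraries were strand-specific, the locus has 1 library per group, and the difference from control was not tested.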

How the results depend on the processing

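No paired analysis was possible because each group had 1 library, and for the same reason no library could be left out within a group. With the start events alone, which gave no value for Csf1r and Olfml3 and left Sall1 not listed in 3 libraries, Gpr34 had log2 ratios of 3.28 at day 1 (from -1.82) and of 5.80, 5.91, -0.61 (from 0.52) and 4.91 at days 3, 7, 14 and 28, and the counts of members were 1 higher at day 1, 1 lower at day 3 and 1 higher at day 7, with 1 in each direction at day 28. A 4-fold threshold left 0 lower at day 1, 0 higher at days 3 and 7 and 1 higher at day 14, which was Cx3cr1. The day 14 count that the alternatives were set against was the one with Cx3cr1. A 1.5-fold threshold gave 5 higher at day 3, and 5 higher and 1 lower at day 7. Without a filter on low values 1 was higher at day 28. In 127 further cases the count stayed within 1.5 times the reported count, though not always with the same genes. With the start events alone, 2 members were again lower at day 1. These were P2ry12 and, in place of Gpr34, Sall1, whose missing start event stood as 0. The median log2 ratio kept its sign in all 60 alternatives, with ranges of -0.47 to -0.26, 0.54 to 0.79, 0.60 to 0.83, 0.49 to 0.61 and -0.10 to -0.06 over the 5 time points. Correction for transcript length lowered the day 14 log2 ratios to -0.70 for P2ry12, 0.23 for Gpr34, 0.24 for Siglech and 1.29 for Aif1. The same correction raised them to 1.37 for Olfml3, 0.80 for Csf1r and -0.33 for Sall1. Other scalings moved all ratios by at most 0.10. Olfml3 and Aif1 were below control on 1 day each relative to Csf1r, but on 5 and 4 days relative to the pan-myeloid median. The infiltrating list had medians of -0.48, 1.94, 2.32, 1.56 and 0.16 over genes listed in both libraries. The alternatives with only genes listed in both libraries or with at least 1 FPKM in control, and the median without Coro1a, were chosen after seeing the data.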

Other observations

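Fcrls, which is grouped with the other microglia-enriched genes, was the member of that list farthest below control at day 28 (3.63 FPKM against 15.2 in control, log2 ratio -2.03), where the 7 homeostatic genes lay between -0.21 and 0.34. Apoe was below control at day 1 (log2 ratio -1.32), the day on which P2ry12 and Gpr34 were lowest, and above it at day 14 (2.30). Tgfbr1 was at 0.855 FPKM at day 14 against 3.77 to 9.70 FPKM in the other libraries, whereas Tgfbr2 at day 14 was at 3.63 FPKM against 2.50 in control. These values were picked out after they were seen, rest on 1 library each, and were not tested.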
